A study of Mus musculus with 15 samples.

Results

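Loss of the kinase gene Sik3 was examined in mouse bone marrow monocytes grown into osteoclasts, by setting 3 knockout cultures (KO) against 3 wild-type cultures (WT). These are 6 of the 15 RNA sequencing samples of the series, and all samples labelled WT or KO were used. Their values come from a deposited table of 2275 genes, which holds only genes that the depositors had picked because they differed between KO and WT. The authors' own test gave all of them a false discovery rate of at most 0.05 and a change of 2-fold or more, so direction, size and gene class can be described, but no share of the genome.

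Both groups received M-CSF at 50 ng/ml alone for 2 days and then RANKL with M-CSF, each at 50 ng/ml, for 2 days, so the controls were themselves RANKL-treated. The labels give strain C57BL/6J to all 6 cultures. Embryonic livers are mentioned in the design text of the series, but each sample is labelled as bone marrow monocytes; these labels were followed. KO cells carried Rank_Cre/+ and Sik3_flox/flox, so that Cre under the control of Rank, the gene of the RANKL receptor, cuts Sik3 in cells that have switched Rank on. The protocol names both C57BL/6J and Rank_Cre/+ mice beside the knockout, and the labels call the control only wild type, so whether the WT cells carried Cre is not given in the sources used here. If they did not, an effect of the Rank_Cre allele and one of Sik3 loss cannot be told apart for any gene. Neither age nor separate animals are given for the replicates, so a p-value here covers the spread among the sampled cultures, which may be technical. In a second experiment, used here for comparison, C57BL/6J cells had M-CSF with vehicle (SC), M-CSF with RANKL for 3 days (SCR), or the same with pterosin B at 300 µM, a compound used against SIK3 signalling (SCRP), with 3 cultures each.

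Osteoclasts are bone-resorbing giant cells that form when macrophage precursors, kept alive by M-CSF, meet RANKL. RANKL acts through its receptor RANK and NF-kB, AP-1 and calcium signals to raise the transcription factor NFATc1, which switches on genes for cell fusion, acid secretion and matrix digestion, while macrophage genes and regulators that hold back the program go down. SIK3 is a salt-inducible kinase that phosphorylates CRTC coactivators and class IIa histone deacetylases and so keeps them in the cytoplasm.

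Library totals implied by the deposited values ranged from 21267111 to 25932103 reads. The listed genes took 9.07% to 9.09% of the reads in WT and 11.5% to 11.7% in KO. Levels below are reads scaled by those totals to a common library size (CPM), and differences are log2 fold changes of KO against WT from edgeR with their standard error (SE). Of the 2275 genes, 1053 (46.3%) were listed as higher and 1222 (53.7%) as lower in KO. The edgeR quasi-likelihood test with Benjamini-Hochberg adjustment (adjusted p under 0.05) could be run on 1773 genes, the other 502 having too few reads, and called 1765 (99.5%), 856 higher and 909 lower. Because these genes were chosen on the same contrast, the calls describe size against spread and are not independent evidence. The groups did not overlap for 2109 genes (92.7%). In the authors' deposited table the genes nearest to the fold limit were Fahd1 at -2.0, Ifit3b at 2.000, Hist1h2ap at 2.001 and Cdkn2b at -2.003. Genes just outside the limit were not analysed here.

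Sik3 itself (GRCm38 chromosome 9, 46012820 to 46224194) stood at 58.3, 59.4 and 56.0 CPM in WT and at 23.9, 17.6 and 19.4 CPM in KO. Every KO culture was below every WT culture, and the 2.86-fold difference left reads over the gene in all KO cultures. Exon reads were counted over the whole gene, so they include any transcript that lacks only the floxed part.

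A stretch of chromosome 17 around the H2 (major histocompatibility) genes set the WT libraries apart from all other groups. For Rps18, a ribosomal protein gene there, WT had 9.03 to 10.4 CPM, KO had 523 to 548 CPM, and the 9 cultures of the second experiment had 257 to 424 CPM. Gm10260, a copy of Rps18 elsewhere, went the other way, with 376 to 399 CPM in WT, 0 to 0.141 CPM in KO and at most 0.342 CPM in the second experiment. Gm11361, whose position is not given here, also set WT apart. It had 124 to 133 CPM in WT, 0.119 to 0.308 CPM in KO and at most 0.655 CPM in the second experiment. For all of these genes the KO cultures lay closer to the second experiment than the WT cultures did, and the cause was not tested.

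WT also stood apart at further genes of the region. H2-K1, a class I antigen-presenting molecule, had 89.3 to 94.9 CPM in WT against 607 to 697 CPM in KO and 321 to 391 CPM in the second experiment. H2-T22 had 1.42 to 2.15 CPM in WT, 36.0 to 39.1 CPM in KO and 17.6 to 34.9 CPM in the second experiment. H2-Q6 ran in the other direction, at 13.5 to 14.5 CPM in WT, 0.476 to 0.810 CPM in KO and at most 0.168 CPM in the second experiment. Hspa1b, a heat shock gene, had 21 to 24.3 CPM in WT, 1.41 to 2.51 CPM in KO and 1.23 to 13.4 CPM in the second experiment. Rps18 and its copy share sequence, as do the H2 genes, so how reads were split among them is uncertain. The 2 tables were normalized separately, and these levels use library totals implied by RPKM. Gm10260 and Gm11361 were chosen after their values were seen.

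**Figure D1:**
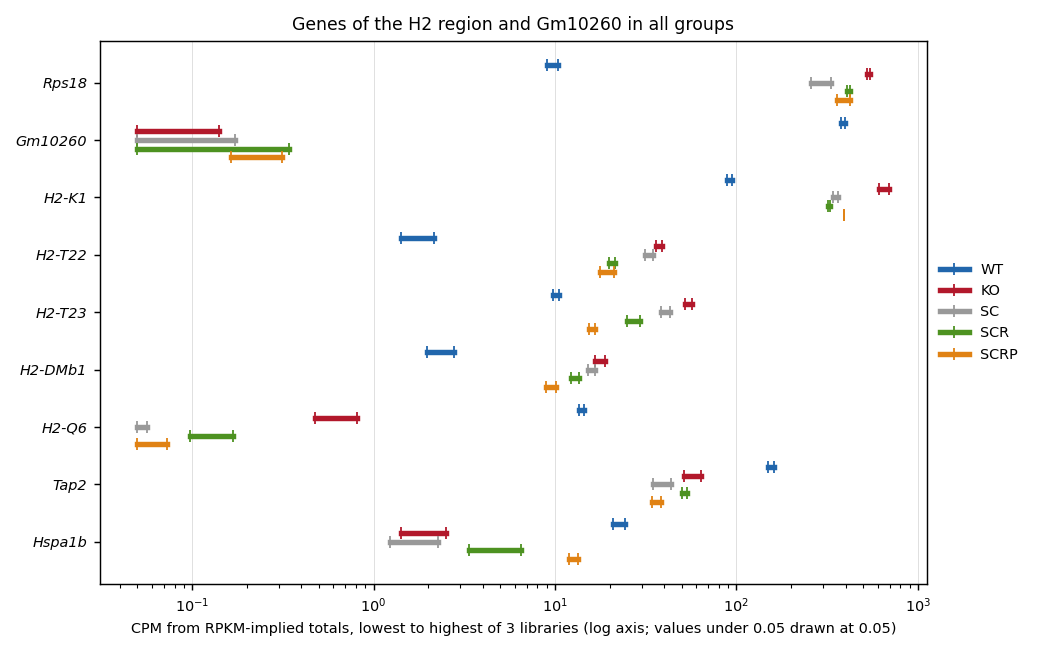
Range from the lowest to the highest of 3 libraries for 9 genes in each of the 5 groups, as CPM on a log axis, with values under 0.05 drawn at 0.05. For Rps18 the WT range of 9.03 to 10.4 CPM lies far below the other 4 groups, and for Gm10260 the WT range of 376 to 399 CPM lies far above them.

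Within 5 Mb of the H2 genes (chromosome 17, 28974659 to 42483552) 58 genes were listed, 25 higher and 33 lower in KO, where 195 genes were measured in the second experiment. Some of the 58 were not among those measured, so these counts do not give a share. The 5 Mb windows around Sik3 and around Tnfrsf11a, the gene for RANK, held 13 and 8 listed genes. For genes inside the windows around Sik3 and Tnfrsf11a, an effect of the deletion and one of the linked stretch of chromosome cannot be told apart. The H2 region lies on a chromosome with neither gene, and there WT stood apart from the second experiment. For its genes, an effect of the deletion and one of the stretch itself cannot be told apart either. Leaving out all 3 regions kept 831 of the 856 genes called higher and 878 of the 909 called lower. It does not remove differences that set WT apart outside these regions. By count alone, the 1 Mb window with most listed genes was chromosome 17 from 35000001 to 36000000, with 17, of which 8 were higher and 9 lower; 11 of the 48 genes measured there in the second experiment were listed. As a share, other windows held more, such as 10 of 16 measured genes on chromosome 19 from 11000001 to 12000000.

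Genes for bone resorption were lower in KO. Of 19 effectors of resorption, 15 were listed, and all 15 were lower and called, with a median log2 fold change of -1.86, beside -1.05 over all tested genes of the table, which mix both directions. Their summed level was 17925 to 18551 CPM in WT and 4752 to 5058 CPM in KO. In bulk RNA, fewer osteoclasts and less RNA of these genes per cell cannot be told apart. The other 4 members (Clcn7, Ostm1, Tcirg1 and Plekhm1), which serve the acid transport and vesicle traffic of the ruffled border, were not among the listed genes.

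Ctsk, the collagen-cutting protease cathepsin K, had 5715, 5917 and 6032 CPM in WT and 1371, 1307 and 1369 CPM in KO. Its log2 fold change was -2.13 ± 0.03 (SE), with adjusted p = 9.32e-23 by edgeR and Benjamini-Hochberg adjustment over the listed genes tested. The gap between the groups was far wider than the spread within either.

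Calcr, the receptor by which calcitonin stops osteoclasts, had 43.0, 44.9 and 47.4 CPM in WT and 5.92, 6.06 and 5.09 CPM in KO, which was the steepest fall of the group at 7.93-fold. Mt3, a metallothionein, had 743, 779 and 736 CPM in WT and 138, 137 and 164 CPM in KO. Atp6v0d2, a proton pump subunit that also serves fusion, had 690, 709 and 741 CPM in WT and 164, 163 and 167 CPM in KO. In each of these genes the lowest WT culture was at least 4 times the highest KO culture.

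Among transcription factors and RANK signalling, 6 of 28 genes were listed, 5 lower and 1 higher, the last being Id2. Nfatc1, the master regulator, had 550, 554 and 536 CPM in WT and 164, 154 and 161 CPM in KO, a 3.43-fold difference. Prdm1, a repressor that RANKL uses to silence the brakes on the program, had 115, 113 and 124 CPM in WT and 34.5, 35.8 and 32.4 CPM in KO. Fosl2 and Jdp2, both of the AP-1 family, fell 3.12-fold and 2.96-fold. Tnfrsf11a, the receptor itself, fell 2.70-fold and lies by definition in its own window.

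Fusion genes were mostly lower. Dcstamp, the membrane protein needed for cell fusion, had 344, 356 and 363 CPM in WT and 81.9, 74.0 and 77.4 CPM in KO. Its relative Ocstamp had 209, 215 and 207 CPM in WT and 54.2, 55.3 and 55.1 CPM in KO. Of 19 fusion genes 10 were listed, 8 lower and 2 higher, the higher ones being Adam8 and Cd81; Adam12 was among the lower ones but had under 1 CPM in every library. Oscar and Siglec15, receptors that pair with ITAM adaptors, were the 2 listed members among 26 costimulatory and calcium signalling genes, and fell 4.31-fold and 3.95-fold.

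Acid secretion and attachment changed in part. In the proton pump list 5 of 22 genes were listed, 4 lower and 1 higher. Car2, the carbonic anhydrase that supplies protons, fell 3.59-fold, and Atp6v1b2 fell 2.48-fold. Atp6v0a1, another a-subunit of the pump, rose from 67.4, 66.5 and 62.3 CPM in WT to 192, 183 and 190 CPM in KO. In the podosome and actin list 9 of 34 genes were listed, 8 lower and 1 higher; Src, the kinase that organises the resorbing seal, fell from 252, 256 and 250 CPM to 75.8, 72.5 and 73.8 CPM, and Cttn, Itga2 and Myo1e fell 3.80-fold, 3.06-fold and 2.99-fold.

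**Figure D2:**
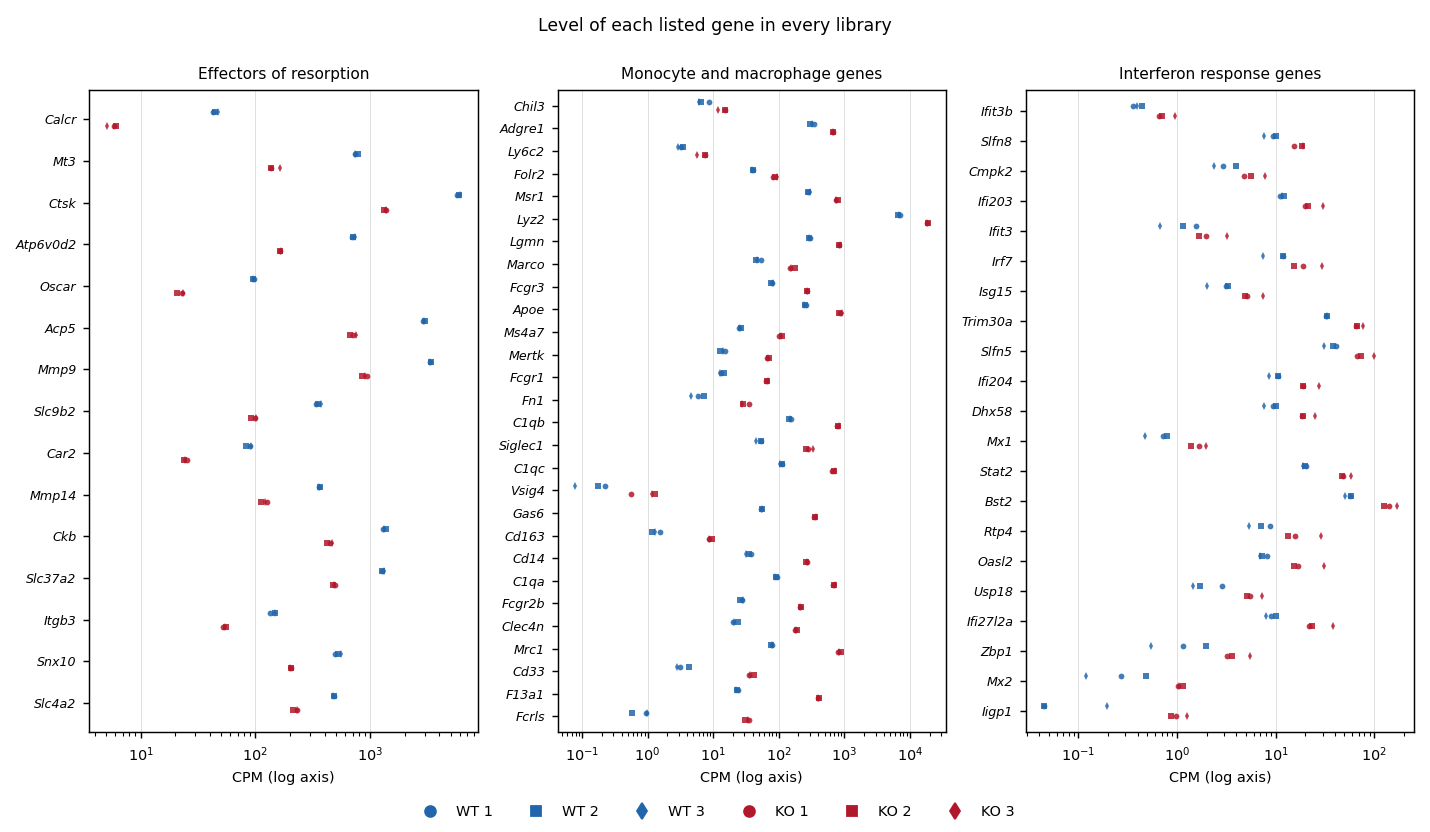
CPM on a log axis in each of the 3 WT (blue) and 3 KO (red) libraries, marker shape giving the replicate, for every listed member of 3 gene lists. All 15 resorption genes lie lower in KO, and all 28 macrophage genes and all 21 interferon genes lie higher; among interferon genes KO replicate 3 is the highest of the KO libraries in 20 of 21.

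Genes of monocytes and macrophages were higher in KO. Of 40 genes on that list 28 were listed, all 28 higher and called, with a median log2 fold change of 2.37. Their summed level was 8580 to 9112 CPM in WT and 26526 to 28043 CPM in KO. Csf1r, Cd68, Itgam and Cx3cr1 were among the 10 members measured in the second experiment but not among the listed genes here.

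Mrc1, the mannose receptor CD206, had 80.2, 75 and 79.9 CPM in WT and 806, 894 and 839 CPM in KO, a log2 fold change of 3.43 ± 0.05 (SE). F13a1, coagulation factor XIII subunit A, had 23.9, 22.8 and 22.5 CPM in WT and 393, 416 and 395 CPM in KO. Fcrls, an Fc receptor-like scavenger protein, had 0.939, 0.576 and 0.984 CPM in WT and 34.7, 31.1 and 34.3 CPM in KO. These were rises of 10.8-fold, 17.4-fold and 39.6-fold, with no overlap between groups. Cd33, a sialic acid receptor, and Clec4n, the fungal receptor Dectin-2, rose 11.2-fold and 8.54-fold. The complement genes C1qa and C1qb rose 7.71-fold and 5.34-fold.

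Regulators that hold back osteoclast formation rose with them: 9 of 26 were listed, 8 higher and 1 lower, the last being Eomes at under 1 CPM in every library. Id1, an inhibitor of helix-loop-helix factors, had 10.4, 13.7 and 9.72 CPM in WT and 53.6, 56.4 and 58.9 CPM in KO. Maf had 86.6, 80 and 83.5 CPM in WT and 389, 418 and 407 CPM in KO. Irf8, the interferon regulatory factor that restrains NFATc1, had 31.3, 31.7 and 30.2 CPM in WT and 109, 105 and 104 CPM in KO. Every KO culture was at least 3 times the highest WT culture for each of the 3. Id3 rose 2.63-fold.

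Inflammatory and lysosomal genes lay on the same side. Of 47 genes for cytokines and NF-kB, 24 were listed, 20 higher and 4 lower. The chemokine Ccl6 had 40.3, 41.8 and 40.0 CPM in WT and 501, 541 and 512 CPM in KO, and Ccl7 had 15, 17.1 and 18.0 CPM in WT and 126, 140 and 135 CPM in KO. Ccl4 and Trem1, an amplifier of innate signals, rose 6.34-fold and 7.57-fold from low levels. The 4 lower members were Ccr3, Ccr1, Ptgs2 and Cxcl3. Of 34 lysosomal genes 7 were listed, all higher, led by the proteases Ctsc at 3.28-fold, Lgmn at 2.84-fold, Ctsb at 2.37-fold and Ctsd at 2.27-fold. The resorption protease Ctsk and these general lysosomal proteases thus moved in opposite directions.

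Interferon response genes were higher in KO in 21 of 48 members, with none lower and a median log2 fold change of 1.21. Bst2, the antiviral membrane tether, had 56.5, 58.3 and 50.4 CPM in WT and 141, 125 and 170 CPM in KO. Oasl2, an oligoadenylate synthetase-like protein, had 8.14, 7.31 and 6.89 CPM in WT and 16.8, 15.5 and 31.1 CPM in KO. KO replicate 3 was the highest of the KO libraries in 20 of the 21 members, and its summed level was 674 CPM against 493 and 484 CPM in the other KO libraries and 205 to 243 CPM in WT. Without that library the log2 fold change of Oasl2 went from 1.52 to 1.12. That of Rtp4 went from 1.47 to 1.04 and that of Ifi27l2a from 1.64 to 1.33. Of the 21 members 20 stayed called, but they were listed by a test that included this library, so this is not independent evidence. What sets this library apart was not tested.

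Promoter windows of RefSeq (build GRCm38.p6, 250 bases before to 50 after a gene's start) were searched on both strands for 8 motifs. Such windows were found for 656 of the 909 genes called lower (870 windows) and for 623 of the 856 called higher (812 windows). The interferon-stimulated response element core (GAAA, any pair of bases, GAAA) was in 3.44% of all 32851 windows, in 1.61% of the windows of genes lower in KO and in 8.25% of those higher in KO. It was in 11 of 15 windows (73.3%) of the listed interferon genes. The PU.1 motif GAGGAAGT, named for the myeloid factor, was in 3.2% of all windows, 2.76% of those lower and 6.77% of those higher in KO.

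The other 6 motifs had these shares, in the order all, lower and higher. TGGAAAAN (NFAT) was in 6.71% of all, 5.06% of lower and 6.65% of higher windows. TGANTCA (AP-1) was in 7.81%, 9.31% and 9.11%, CACGTG (the E-box of MITF) in 7.15%, 8.85% and 8.5%, and TCATGTG (M-box) in 3.77%, 1.72% and 4.93%. TGACGTCA (CRE) was in 1.79%, 1.95% and 1.23%, and the MEF2 motif (CTA, any 4 bases, TAG) in 3.69%, 3.79% and 3.08%. A match is only a run of letters, not a shown binding site, and no test was made. Neighbouring windows of a gene can overlap, and 2 matches can overlap within a window.

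The windows of 5 of these genes are shown, to let the letters be seen beside the values: Ctsk and Oscar among those lower in KO, and F13a1, Bst2 and Stat2 among those higher. They were chosen after values and matches were seen. Capitals mark the match, on whichever strand it was found: NFAT in Ctsk (chr3:95498960-95499259, plus strand, 2 bases before the start) and Oscar (chr7:3616108-3616407, minus strand, 84 before), PU.1 in F13a1 (chr13:37049164-37049463, minus strand, 14 after), and the interferon element in Bst2 (chr8:71537423-71537722, minus strand, overlapping matches 130 and 124 before) and Stat2 (chr10:128270248-128270547, plus strand, 222 before). Each is written 5′ to 3′ along its gene.
Ctsk: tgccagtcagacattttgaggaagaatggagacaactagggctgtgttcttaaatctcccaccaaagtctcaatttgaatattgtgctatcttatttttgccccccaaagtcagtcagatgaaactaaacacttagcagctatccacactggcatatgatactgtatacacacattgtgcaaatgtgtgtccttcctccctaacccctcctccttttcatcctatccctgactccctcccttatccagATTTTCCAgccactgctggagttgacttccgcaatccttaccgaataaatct
Oscar: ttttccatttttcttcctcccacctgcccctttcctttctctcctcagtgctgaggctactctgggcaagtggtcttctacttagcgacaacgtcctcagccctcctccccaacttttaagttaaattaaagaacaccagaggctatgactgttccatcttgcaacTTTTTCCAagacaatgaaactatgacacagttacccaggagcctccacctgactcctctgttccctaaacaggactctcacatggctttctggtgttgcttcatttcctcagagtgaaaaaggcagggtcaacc
F13a1: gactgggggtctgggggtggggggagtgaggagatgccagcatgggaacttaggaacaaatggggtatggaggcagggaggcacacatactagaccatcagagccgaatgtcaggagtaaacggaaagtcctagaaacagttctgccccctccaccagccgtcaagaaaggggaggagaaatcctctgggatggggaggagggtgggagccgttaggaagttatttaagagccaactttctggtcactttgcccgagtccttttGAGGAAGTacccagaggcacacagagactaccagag
Bst2: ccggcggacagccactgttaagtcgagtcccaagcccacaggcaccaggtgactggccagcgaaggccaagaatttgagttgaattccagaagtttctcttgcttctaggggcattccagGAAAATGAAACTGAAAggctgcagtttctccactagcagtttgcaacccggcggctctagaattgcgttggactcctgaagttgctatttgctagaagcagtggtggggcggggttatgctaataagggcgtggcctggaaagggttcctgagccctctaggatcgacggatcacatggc
Stat2: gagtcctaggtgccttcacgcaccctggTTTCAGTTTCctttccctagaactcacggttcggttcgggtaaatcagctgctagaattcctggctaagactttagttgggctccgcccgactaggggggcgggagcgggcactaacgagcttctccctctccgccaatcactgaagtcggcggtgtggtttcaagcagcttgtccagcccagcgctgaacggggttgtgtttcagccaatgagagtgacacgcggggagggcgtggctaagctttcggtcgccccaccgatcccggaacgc

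Stat2, the transcription factor that carries the type I interferon signal, stood at 20.4, 20.1 and 19.2 CPM in WT and at 47.9, 47.2 and 58.8 CPM in KO. F13a1 has a further window, from another start, that is not shown.

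Among the genes nearest to SIK3 itself, 6 of 24 were listed. Sik1, another salt-inducible kinase, had 27.0, 24.1 and 24.2 CPM in WT and 8.60, 8.96 and 9.72 CPM in KO, but lies in the chromosome 17 region described above. Mef2c and Mef2a, factors that class IIa histone deacetylases bind, rose 2.65-fold and 2.19-fold, Hdac9, one of those deacetylases, rose 2.44-fold, and Prkacb, a catalytic subunit of protein kinase A, rose 2.14-fold. Of 30 genes on a list of CREB and CRTC targets 7 were listed, 4 higher and 3 lower, without a common direction. Sik2 and the 3 Crtc genes were not among the listed genes.

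Signals that osteoclasts send to bone-forming cells were split. Of 20 such factors 10 were listed, 7 lower and 3 higher. Lif, a cytokine of the IL-6 family, had 17.9, 19.7 and 21.2 CPM in WT and 6.25, 3.53 and 4.78 CPM in KO. Efnb2, the ephrin ligand, had 16.6, 16.4 and 16.4 CPM in WT and 3.76, 4.52 and 4.90 CPM in KO. Pdgfb fell 2.48-fold, while Spp1, the matrix protein osteopontin, rose from 579, 549 and 565 CPM to 1844, 1811 and 1843 CPM.

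Metabolic lists held 4 to 6 listed genes each. For scale, 11% to 17.6% of the genes measured in the second experiment were listed on each autosome and on the X chromosome. Of 39 mitochondrial genes 4 were listed, all lower and 3 of them called; Ppargc1b, a coactivator of mitochondrial growth in osteoclasts, fell 3.47-fold and Ckmt1, a mitochondrial creatine kinase, fell 4.24-fold. Of 28 genes for serine synthesis and stress of protein folding 4 were listed, all lower, among them Phgdh at 3.63-fold and Asns at 2.96-fold. Of 28 cholesterol synthesis genes 5 were listed, all higher, among them the synthesis enzymes Fdps at 2.31-fold and Cyp51 at 1.97-fold. The cell cycle list had 4 of 49 genes listed, all higher (Ccnd1, E2f2, Cdkn2d and Ccnd2), at about 2-fold for Ccnd1 and E2f2, while the other 45 members, Mki67 and Top2a included, were not among the listed genes. Of 34 glycolysis and hypoxia genes 5 were listed, with the hexokinase Hk3 2.71-fold and the hypoxia target P4ha2 3.02-fold higher, and the growth factor Vegfa, another hypoxia target, 2.26-fold lower. Of 31 genes of oxidative stress and iron 4 were listed, with the iron importer Tfrc 2.38-fold lower and the exporter Slc40a1 2.67-fold higher. Of 26 lipid handling genes 6 were listed, 4 higher and 2 lower, with Ch25h, which makes an oxysterol, up 13.8-fold and Apoe up 3.46-fold. Of 28 genes of p53 and cell death 8 were listed, 5 higher and 3 lower, and the survival gene Bcl2l1 rose from 25.4, 25.1 and 26.3 CPM to 99.9, 105 and 102 CPM.

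**Figure D3:**
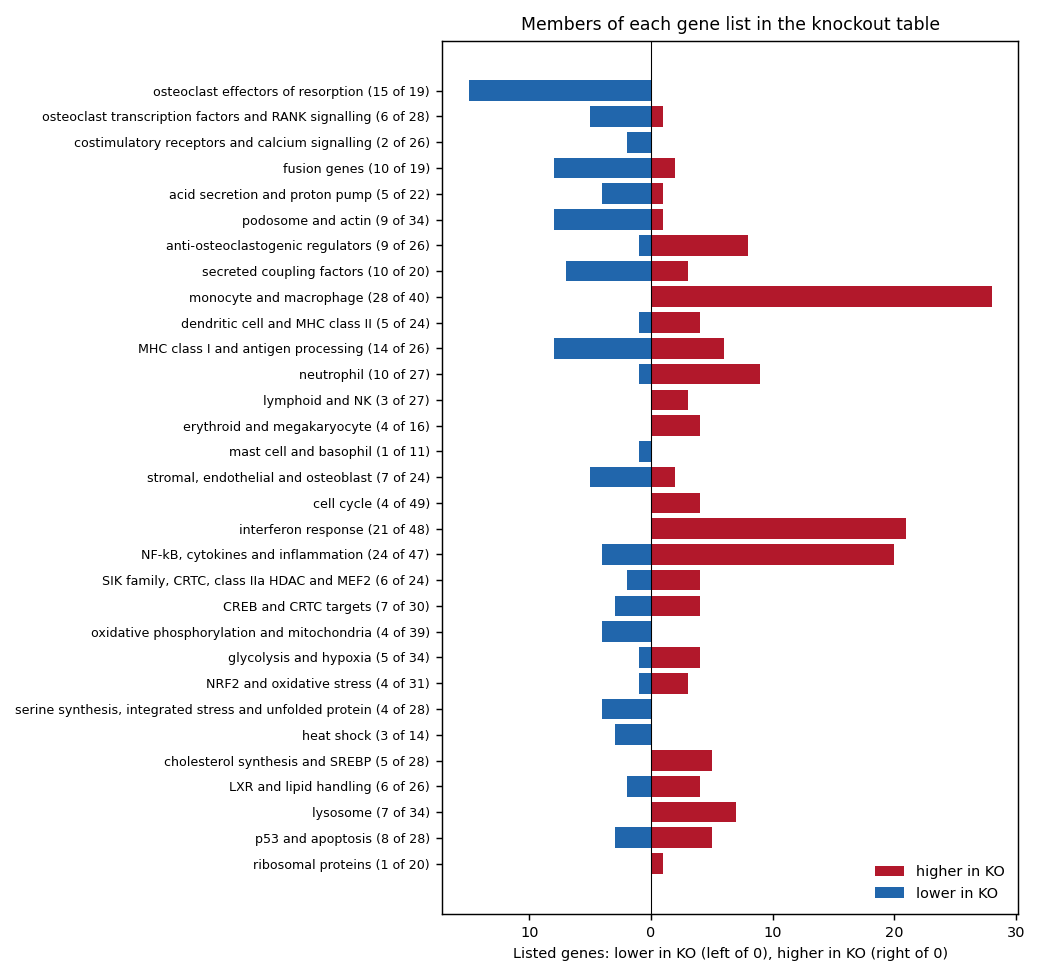
Number of members of each of 31 gene lists that were in the knockout table, lower in KO to the left and higher to the right of 0, with the listed members of all members in brackets. The 28 macrophage and 21 interferon genes are all on the right and the 15 resorption genes all on the left.

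Markers of several other blood cell types were higher in KO, most of them at low levels. The neutrophil list had 10 of 27 genes listed, 9 higher and 1 lower, the lower one being Mmp9, which osteoclasts make in quantity; Mmp8 and Padi4 rose 2.40-fold and 2.31-fold. Csf3r, the G-CSF receptor, had a log2 fold change of 1.89, from 1.93 to 7.10 CPM, and S100a8, a calcium-binding protein of neutrophils and monocytes, went from 7.07 to 14.1 CPM. Mcemp1, Ctsg and Fcnb were also called higher, while 17 members, such as Elane, Mpo and Ltf, were not among the listed genes. The 3 listed lymphoid genes summed to 0.268 to 0.797 CPM in WT and 1.77 to 2.18 CPM in KO. Of the 7 listed stromal, endothelial and osteoblast genes 5 were lower and 2 higher, with a median log2 fold change of -1.28 over the 5 tested. Their sum, in which Kdr, an endothelial receptor, went from 2.82 to 9.43 CPM, came to 6.85 to 8.77 CPM in WT and 10.7 to 14.0 CPM in KO. Pf4, a platelet chemokine also made by macrophages, rose from 41.6, 38.7 and 38.1 CPM to 238, 277 and 246 CPM, while Gp9 and Epor of the same list were near 0. The part that other cells had in the results was not tested.

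The largest differences were taken among genes with a mean of at least 10 CPM, no overlap between the groups and a symbol that is not of the Gm, Rik, pseudogene or immune receptor segment type. This leaves out Gm10260 and Gm11361, which fell further, and H2-Q6, which fell 21.9-fold at a lower mean level. Of the 12 steepest falls under that rule, Hspa1b of the H2 region came first at 10.5-fold and Efr3b, a membrane scaffold for a lipid kinase, next, with 50.0, 47.8 and 46.7 CPM in WT and 5.83, 5.11 and 4.97 CPM in KO, a fall of 9.11-fold. Others were Calcr, Col4a5, Lpl, Zfp462, Steap4, Uchl1, Slc18a1, Fcrl1, Sec16b and Cavin3. Of the 12 steepest rises under it, Pianp, a ligand of the inhibitory receptor PILR-alpha, led with 0.0895, 0.0885 and 0.197 CPM in WT and 22.8, 19.5 and 22.2 CPM in KO, at 161-fold. Rps18 and H2-T22 of the H2 region came among them, then Fcrls, F13a1, Fpr1, Cbr2, Ccl6, Cd33, Mrc1, C5ar1 and Clec4n. Among called genes the median fold was 3.0 for the lower and 2.65 for the higher ones, and 23 lower and 42 higher genes differed at least 8-fold.

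The second experiment gave a measure that the choice of genes did not use, since it shares no sample with KO and WT. It tells how far genes that differ between KO and WT also differ between SCR and SC. SCR had RANKL for 3 days, against 2 days in KO and WT. SC is recorded with M-CSF alone for 2 days and 0 days of RANKL. If SC was not held as long as SCR, RANKL and time in culture cannot be told apart. RANKL was tested as SCR against SC over 13650 genes, of which 30.7% rose and 28.4% fell (edgeR, adjusted p under 0.05). Of 829 genes lower in KO that could be tested, 638 (77.0%) rose with RANKL, 14 (1.69%) fell and 177 were not called. Their median log2 fold change with RANKL was 1.95, or 1.94 with the 51 genes that had 0 reads in one group set at a bound of 3 reads per library, beside 0.02 over all tested genes. Of 831 genes higher in KO, 688 (82.8%) fell with RANKL, 17 (2.0%) rose and 126 were not called, with a median of -1.47. Without the 3 regions around the H2 genes, Sik3 and Tnfrsf11a the 4 counts were 624, 12, 671 and 16. Inside the H2 region 20 of 34 genes (58.8%) went opposite to RANKL, against 1295 of 1613 (80.3%) outside the 3 regions.

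Across genes, a larger change with RANKL went with a larger opposite difference in KO, with a Spearman rho of -0.42 within the lower and -0.43 within the higher genes. Genes are not independent replicates, and all points share the same libraries. By list, all 15 listed resorption genes rose with RANKL, 26 of 27 tested macrophage genes fell and 16 of 21 interferon genes fell. Steep examples on the falling side were Sec16b, which rose from 0.259 to 5.71 CPM with RANKL and was 5.26-fold lower in KO, and Zfp462, which rose from 0.0146 to 29.1 CPM and was 5.65-fold lower. Steap4, a metalloreductase, had 0 CPM in SC and 7.20 CPM in SCR, and fell from 45.3, 42.5 and 45.3 CPM in WT to 6.63, 8.13 and 8.79 CPM in KO. Steep examples on the rising side were F13a1, which went from 221 to 9.77 CPM with RANKL, and Fcrls, which went from 88.1 to 1.87 CPM. These are means of 3 cultures. Levels of the 2 experiments, normalized separately, are not set against each other in these examples, unlike for the H2 region above.

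**Figure D4:**
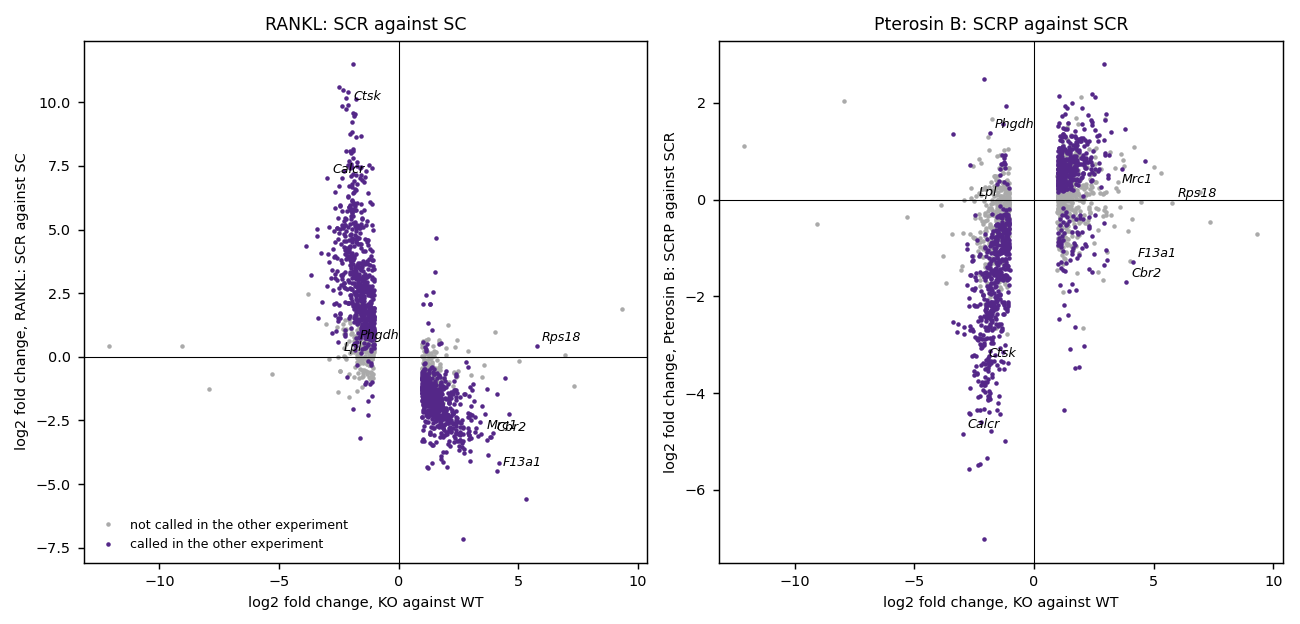
Each point is a gene called in KO against WT, with its log2 fold change there on the horizontal axis and its log2 fold change with RANKL (left) or pterosin B (right) on the vertical axis, genes at 0 in one group being drawn at their bound. Most genes lie opposite to RANKL (638 lower and 688 higher in KO), and the empty band around 0 comes from the fold limit of the table.

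Some large differences in KO had no counterpart in the response to RANKL. Lpl, the lipoprotein lipase, had 2775, 2679 and 2799 CPM in WT and 481, 494 and 451 CPM in KO, a log2 fold change of -2.53 ± 0.04 (SE). In the second experiment its mean was 2962 CPM without RANKL, 2957 CPM with RANKL and 2908 CPM with pterosin B, and it was called in neither contrast. Pianp had 0.692 and 0.309 CPM in SC and SCR and was not called with RANKL. Kitl, the ligand of the receptor KIT, was 4.52-fold lower in KO and also fell with RANKL, from 25.3 to 14.7 CPM. Others that were lower in both were Ltbp3, Arap2, Mfge8, Hist1h1c and Cadm1, the last lying in the window around Sik3; the call of Hist1h1c with RANKL was lost under most alternatives. Genes higher in both were Slc39a4, a zinc importer, Ifitm3, Cxcl16, Rab20, Slc7a11, the cystine importer, and Rps18. Rps18 lies in the H2 region, and there WT stood apart from all other groups, as described above. Ifitm3 had 149, 136 and 194 CPM in the KO libraries, so replicate 3 was again the highest.

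Pterosin B was compared next, as a drug used against the same kinase. Over the 13650 genes 17.9% rose and 19.9% fell in SCRP against SCR. Of the 829 genes lower in KO, 494 (59.6%) fell with pterosin B, 21 (2.53%) rose and 314 were not called, with a median log2 fold change of -0.99 beside 0.00 over all tested genes. Of the 831 genes higher in KO, 371 (44.6%) rose, 79 (9.51%) fell and 381 were not called, with a median of 0.34. Within the lower genes the Spearman rho between the 2 differences was 0.42, and within the higher genes 0.09. Both contrasts of the second experiment share the SCR cultures, so their counts are not independent of each other.

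The resorption list went the same way throughout, with all 15 listed members lower in SCRP. Calcr fell from 8.97 to 0.320 CPM with pterosin B, Ctsk from 1457 to 142 CPM and Dcstamp from 199 to 26.9 CPM. The 7 listed lysosomal genes and the 8 tested anti-osteoclastogenic genes all rose, and so did C1qa, from 63.0 to 198 CPM, C1qb, from 183 to 554 CPM, the iron exporter Slc40a1, from 40.8 to 123 CPM, and Ctla2b, Fads2 and Tmem132a. Over all 34 lysosomal genes, listed or not, 13 rose and 12 fell with pterosin B. Over the 23 anti-osteoclastogenic genes measured in the second experiment, 16 rose and 4 fell.

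The macrophage list was divided: 13 of 27 tested members rose with pterosin B, 4 fell and the others were not called. Mrc1 was not called, at 111 CPM in SCR and 131 CPM in SCRP, but passed with the replicate number as a block (log2 fold change 0.23, adjusted p = 0.0104 by edgeR). Fcrls was likewise not called but passed with the block (0.55, adjusted p = 0.0487 by edgeR). F13a1 fell further, from 9.77 to 4.0 CPM. Of the 21 interferon genes, 1 rose (Stat2) and 7 fell with pterosin B, so that Oasl2, at 5.66 CPM in SCR and 2.41 CPM in SCRP, was higher in KO and lower with the drug.

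Further genes with opposite directions were Cbr2, a carbonyl reductase, 14.4-fold higher in KO and lower in SCRP, and Cd28, which fell from 8.41 to 1.05 CPM with pterosin B though 4.22-fold higher in KO. Ly6a, Rtp4 and Ugt1a6b did the same. Only 10.4% of the reads of Ugt1a6b, whose locus overlaps its relatives, were unique to it in the second experiment. Ly6a had 17.7, 16.8 and 28.1 CPM in the KO libraries, with replicate 3 the highest. In the other direction, Phgdh was 3.63-fold lower in KO but rose from 6.76 to 17.5 CPM with pterosin B, as did Gstt1, Btbd11, Kcnj2, Ltbp3 and Hspa1b.

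Reads shared between genes limit some of these values. In the second experiment under 80% of reads were unique to the gene for F13a1 (60.0%), Ccl6 (58.2%), Maf (67.9%), Irf8 (45.6%), Mef2a (29.3%), Ctsd (36.7%), Ccnd1 (53.7%), Fdps (55.3%), Ctla2b (35.1%), Tmem132a (65.6%), Pdgfb (77.0%) and Hspa1b (73.3%). The strand counted is not given in the sources used here, so for all of these but Hspa1b, which overlaps no annotated gene but has the near-identical copy Hspa1a, reads of the gene and of the transcripts it overlaps cannot be told apart. Unique reads were not analysed here for the knockout table.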

How the data were processed

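Directional libraries came from 500 ng of RNA after removal of ribosomal RNA, per the labels' protocols. The build is GRCm38 (mm10), per the submitters' processing notes; the sources used here name no aligner or counter. The deposited counts are exon reads per gene, and the deposited RPKM values are those counts scaled by the authors for exon length and library total, per the file headers. The deposited p-value, FDR-corrected p-value and signed fold score are the authors' own test, per the file headers, and chose the genes of the knockout table. Other deposited values are coordinates and exon lengths, per the file headers. Of the low counts of the second experiment, 75.3% to 79.0% were even, against 45.5% to 50.7% in KO and WT. Another 183 columns of per-sample values were not used.

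Library totals of KO and WT were recovered from each gene's RPKM, exon length and count; scaling factors were not used. Tests used the quasi-likelihood method of edgeR 4.0.16 (R 4.3.3, filterByExpr, two-sided, Benjamini-Hochberg over the genes tested), and the 9 libraries of the second experiment in 1 fit with TMM. Among 783 genes averaging 200 reads or more, the median gap between these log2 fold changes and the authors' was -0.03, and 0 had another direction. In tests on simulated data all 200 changed genes were recovered in both fits, with 13 false calls among 1755 genes for KO against WT and 9 among 13314 for SCR against SC. DESeq2 1.42.0 was an alternative. Tables and plots used Python 3.11.15, pandas 2.3.3, numpy 2.4.6 and matplotlib 3.10.9. Positions equalled GENCODE mouse release 21 for 2228 of 2247 genes with an identifier. Deviations from group means of same-numbered SCR and SCRP libraries correlated at 0.202, 0.227 and 0.151, while those of SC and SCR did not all correlate. The fit behind the results had no term for the replicate number. A replicate block was run only as an alternative. With it, 492 genes were lower and 375 higher in both KO and SCRP. A further 23 were lower in KO and higher in SCRP, and 84 the reverse.

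The named genes are the listed ones near Sik3, the 12 largest changes a direction at 10 CPM or more without overlap of the groups, up to 4 members a list at 5 CPM or more, and 6 genes a direction class; others were named after their values were seen. The members and the 31 lists were chosen with earlier results of these data known. The floor of 3 reads per library covers counting error only.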

Additional observations from a re-analysis of the deposited data

How the results depend on the processing

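The counts of genes higher and lower in KO stayed within 1.5 times of 856 and 909 in all settings run. The genes were chosen on this contrast in the same libraries, so this stability was largely fixed in advance. Leaving out each replicate gave 837 to 872 genes higher and 908 to 970 lower; other scalings, DESeq2 or no filter gave 794 to 1022 higher and 913 to 1195 lower. TMM factors over the listed genes moved all log2 fold changes by a median of -0.11, and totals of the listed genes only by -0.36, without a change of direction among the named genes. Deviations from group means of same-numbered WT and KO libraries correlated at -0.113, -0.134 and -0.197. With 3 libraries a group, this cannot tell whether same-numbered libraries share animals or days. A replicate block gave 851 genes higher and 906 lower.

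Against RANKL, leaving out each replicate gave 616 to 647 genes lower in KO and higher in SCR, 13 to 16 lower in both, 15 to 18 higher in both and 669 to 692 higher in KO and lower in SCR. Under pterosin B it gave 445 to 505 genes lower in both, 326 to 371 higher in both, 17 to 24 lower in KO and higher in SCRP, and 67 to 86 higher in KO and lower in SCRP. A minimum of 2-fold left 8 genes lower in both and 9 higher in both for RANKL. For pterosin B it left 81 genes higher in both, 5 lower in KO and higher in SCRP, and 35 higher in KO and lower in SCRP, by its own construction. The block changed the pterosin B call of Mrc1, Fcrls and Ccl7 and of no other named gene, and Ccl7 passed with it at -0.25 (adjusted p = 0.00553 by edgeR). Counted over named genes and settings together, 17 RANKL values and 6 pterosin B values lost their call and 2 and 24 gained one. Counts moved 7 times for lists of low genes (lymphoid, erythroid, mast cell, stromal and CREB targets). Leaving out the regions around the H2 genes, Sik3 and Tnfrsf11a, chosen after seeing the data, gave 831 higher and 878 lower. Unique exon reads could not be tried for KO against WT. Depth limits the 502 listed genes that were too low to test.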

Other observations

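Gene families were read off the symbols after the values were seen, so their counts are descriptions with no test. All 9 listed genes of the Ms4a family, membrane proteins of myeloid and B cells, were higher in KO, and so were all 8 of the Cd300 family of immune receptors, with a median log2 fold change of 2.38. A 1 Mb window of chromosome 19 (11000001 to 12000000) held 12 listed genes, 12 higher and 0 lower, and a window of chromosome 11 (115000001 to 116000000) held 10, of which 9 were higher, with 6 of the 8 Cd300 genes among them. Near-identical neighbours in such clusters can share reads. All 8 listed Toll-like receptor genes (Tlr1, Tlr2, Tlr3, Tlr5, Tlr6, Tlr7, Tlr8 and Tlr13) were higher, and all 6 genes with a Tnfsf symbol were higher.

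In the other direction, all 7 listed serine protease genes with a Prss symbol were lower in KO, as were 14 of 16 collagen genes. Of 44 genes with a symbol that starts with Slc, 27 were lower and 17 higher. Histone genes were mixed, with 12 of 22 higher. By annotation, 915 protein-coding genes were higher and 1064 lower, while 59 long intergenic RNA genes were higher and 63 lower.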
